A study of Mus musculus with 20 samples.

Results

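Interferon-stimulated and antigen presentation genes are the genes that cells switch on in answer to interferon, and this account follows 32 of them in mouse spinal cord after an injection of the glucocorticoid dexamethasone (Dex). The list was given by name. Each gene was represented by the single-symbol probe set with the highest mean over 20 arrays. Of the 32 genes, 30 could be measured, out of 22180 genes with a symbol on the arrays. Oas1a was present only on a probe set shared with Oas1g, and no probe set used here carried the symbol Ifi44, so neither has a value.

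Interferons bind receptors that act through Jak kinases, and type I interferon brings Stat2 and Irf9 into a complex that binds the interferon-stimulated response element (ISRE) in target promoters. Interferon gamma acts on promoters through the gamma-activated site (GAS). Target genes encode sensors of foreign RNA and DNA, antiviral effectors, and the machinery that cuts proteins into peptides and loads them onto class I molecules for display to T cells. Glucocorticoids act through the glucocorticoid receptor (encoded by Nr3c1), and synthetic glucocorticoids such as Dex are used in medicine to suppress inflammation.

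Spinal cord was taken from C57BL/6J mice of 6 to 10 weeks of age, 4 h after an intraperitoneal injection of saline or of Dex at 4 mg/kg. The 4 groups, with 5 mice in each, were control mice with saline, control mice with Dex, Cx30GRko mice with saline and Cx30GRko mice with Dex. Cx30GRko mice lose the glucocorticoid receptor, through Cre, in cells that use the gene of connexin 30, a gap junction protein of astrocytes. The sample titles call these mice "Tg" and the controls "wt", and the genotype field of every sample reads C57BL/6J. Which alleles the controls carry, how Cre was switched on and how far recombination went in each mouse are not stated by the labels. The comparisons ask which genes answer to Dex and whether that answer differs where astrocytes lack the receptor.

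Promoter sequence is described first, since these genes are known for the motifs they share. The stretches below hold the ISRE core, searched as GAAANNGAA on both strands, or for Psmb8 the GAS element, searched as TTCNNNGAA. They are shown because the results below turn on several of these genes, or because the motif is repeated in them. Sequences are from RefSeq on build GRCm38.p6, 5′ to 3′ along each gene's strand, and capitals mark the motif match or, where matches overlap, the run that they cover together.
Isg15 (chr4:156200856-156200916, minus strand): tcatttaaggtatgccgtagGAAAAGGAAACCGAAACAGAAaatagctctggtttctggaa
Ifit1 (chr19:34640760-34640833, plus strand): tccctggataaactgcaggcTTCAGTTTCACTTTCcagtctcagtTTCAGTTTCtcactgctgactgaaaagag
Ifit3 (chr19:34583354-34583455, plus strand): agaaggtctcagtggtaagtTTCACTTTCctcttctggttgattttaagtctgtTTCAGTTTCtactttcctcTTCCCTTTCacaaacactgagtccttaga
Bst2 (chr8:71537568-71537622, minus strand): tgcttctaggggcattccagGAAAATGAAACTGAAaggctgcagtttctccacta
B2m (chr2:122147528-122147576, plus strand): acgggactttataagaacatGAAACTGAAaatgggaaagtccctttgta
Trim30a (chr7:104465200-104465248, minus strand): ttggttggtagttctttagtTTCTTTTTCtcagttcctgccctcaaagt
Psmb8 (chr17:34198078-34198126, plus strand): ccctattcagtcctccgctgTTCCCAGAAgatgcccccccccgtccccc

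The stretches of Isg15, Ifit1 and Ifit3 each hold 3 ISRE core matches, that of Bst2 holds 2, and those of B2m and Trim30a hold 1 each. In Isg15 and Bst2 the matches overlap into 1 run. Of the 32 listed genes, 23 had a window in the RefSeq promoter table, which spans 250 bases before to 50 bases after a start site. The ISRE core was present in 13 of these 23 genes (56.5%), against 2638 of 27025 genes (9.76%) with a window of the same length. These 13 were B2m, Bst2, Ddx58, Eif2ak2, Ifi44, Ifih1, Ifit1, Ifit3, Isg15, Oas1a, Rsad2, Stat2 and Trim30a. The GAS element was present in 6 of 23 (26.1%), against 2582 of 27025 (9.55%), and these were Bst2, Eif2ak2, Ifi35, Ifit2, Oas1a and Psmb8. The core of the glucocorticoid response element, ACANNNTGT, was in 0 of 23 windows, against 2135 of 27025 (7.9%), which says only that these letters are not in these windows. In Bst2 the GAS match overlaps the first ISRE match. A match describes the letters and not binding.

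**Figure D1:**
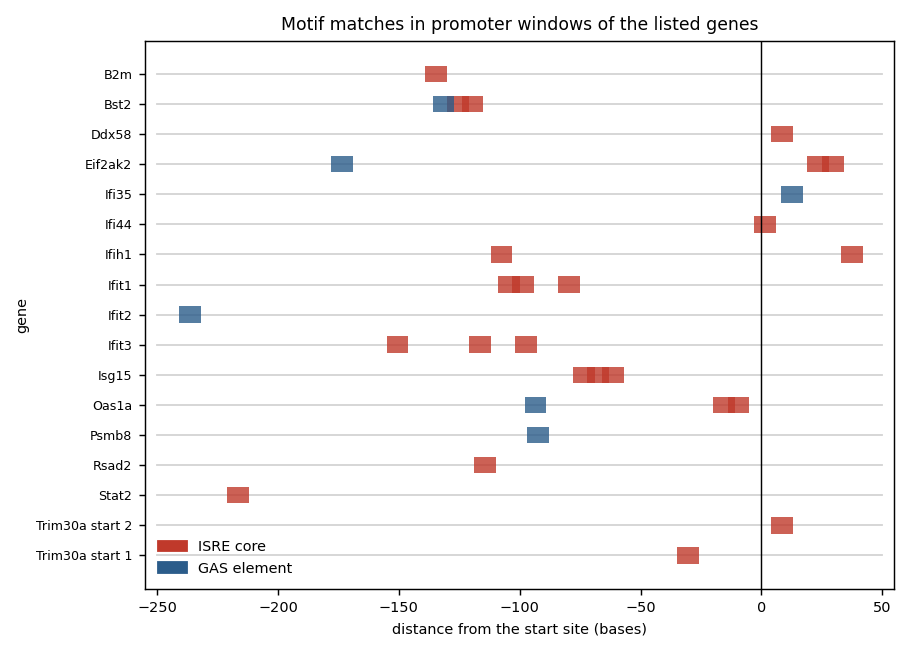
Positions of ISRE core (red) and GAS element (blue) matches in the promoter windows of listed genes; the x axis is the distance from the start site in bases, and grey lines span the window from 250 bases before to 50 bases after it. Most matches lie upstream of the start, while those of Ddx58, Ifi35, Ifih1, Eif2ak2 and Trim30a include positions after it, and that of Ifi44 spans it; Trim30a has 2 annotated starts with a match.

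The deposited values are log2 array signals, and arrays with replicate numbers 1 to 3 (12 arrays) and 4 and 5 (8 arrays) had been centred separately, so each group has 3 mice in the first array set and 2 in the second. The Cx30GRko Dex replicates 4 and 5 stood apart from the other arrays, with an SD across probe sets of 1.95 and 1.81 against 1.66 to 1.71. Tests used limma with 1 mean per group over all 20 arrays and Benjamini-Hochberg adjustment over the 22180 genes, with a threshold of 0.05. Of the genes known to answer to glucocorticoids, Cdkn1a, a cell cycle inhibitor, rose by 1.80 ± 0.19 (log2, SE; adjusted p = 7.64e-05, limma) averaged over both genotypes, and the kinase Sgk1 rose by 1.01 ± 0.13 (adjusted p = 0.000744). Fkbp5, another target of the receptor, had a mean Dex effect of 0.69 ± 0.18 (adjusted p = 0.214), at 1.18 in the first array set and -0.05 in the second. Nr3c1 had group means of 6.21, 6.22, 6.19 and 6.59 in the order of groups above and its adjusted p between genotypes under saline was 0.995 (limma). It ranged from 5.40 to 7.79 over the arrays, the highest being Cx30GRko Dex replicate 4. Where its probes lie relative to the deleted part is not given, and cells without Cre keep the receptor, so this level does not check the labels. Astrocyte (10 of 10 listed), neuron (8 of 8), oligodendrocyte (5 of 6) and microglia (9 of 10) markers were measured, including Gfap at a mean of 8.04 and Cx3cr1 at 5.95. Because the tissue was measured whole, fewer cells of a type and less RNA per cell cannot be told apart.

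None of the 30 measured genes passed the adjusted threshold in any comparison. For the mean Dex effect over both genotypes, 0 of 30 passed, against 33 of 22180 genes (0.149%). At an unadjusted p under 0.05, 0 of the 30 were higher, against 5.15% of all genes, and 3 were lower (Trim30a, Ifit2 and Psmb8), against 3.49% of all genes. Their differences stood on both sides of 0, with 14 above and 16 below and a median of -0.02, beside a median of 0.02 and 54.1% above 0 over all genes. For the array signal of all 30 genes, the 95% interval of the mean Dex effect lay inside a 2-fold change either way, and for 23 it lay inside 1.5-fold. For the 15 genes whose mean signal is below the median of all genes (4.68), a bound on the signal need not bound the change in RNA. The intervals together ran from -0.75 to 0.59 on the log2 scale, with a median half-width of 0.29.

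**Figure D2:**
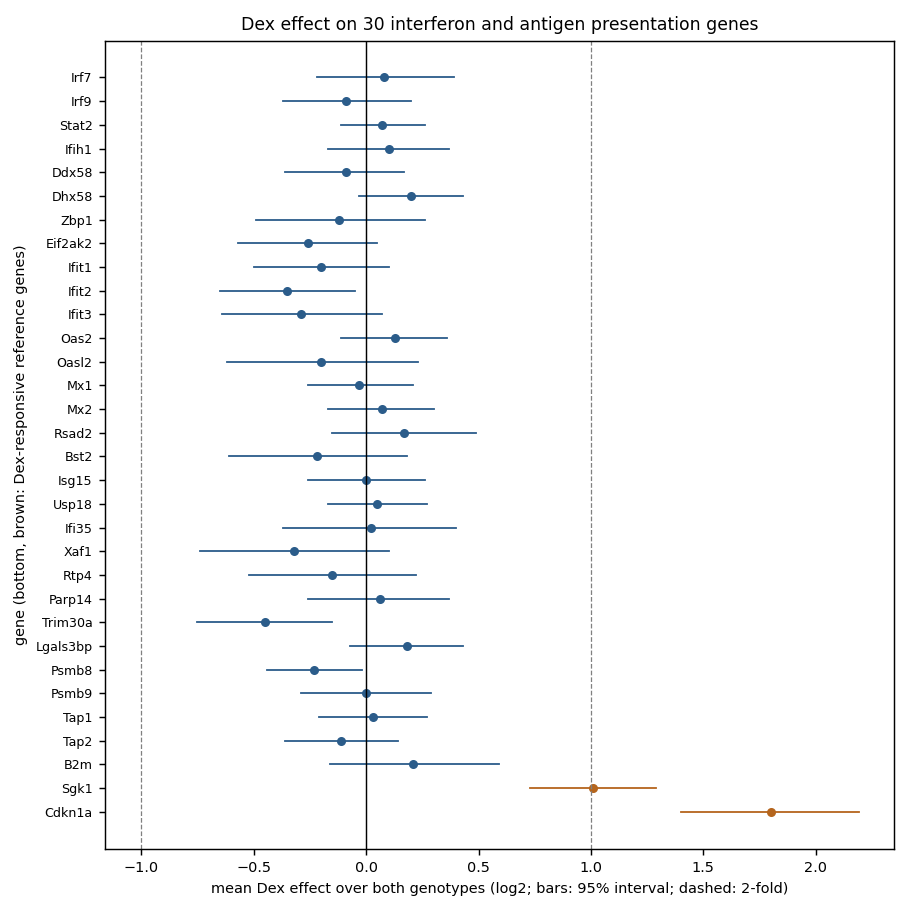
Mean Dex effect over both genotypes (x axis, log2; points with 95% intervals from limma) for the 30 measured interferon and antigen presentation genes in blue and the Dex-responsive genes Sgk1 and Cdkn1a in brown; dashed lines mark a 2-fold change. The 30 points lie between -0.45 and 0.21 and no interval reaches a 2-fold change, while Sgk1 lies at 1.01 and Cdkn1a at 1.80.

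By array, the mean deviation of the 30 genes from their own means ran from -0.15 in control Dex replicate 2 to 0.22 in control saline replicate 3, where 23 of 30 genes stood above their own mean. The group means of this deviation were 0.05, -0.07, 0.01 and 0.01 in the order control saline, control Dex, Cx30GRko saline and Cx30GRko Dex, and the groups overlapped. The mouse with the highest deviation also had meningeal fibroblast markers (8 of 8 measured) 0.85 above their mean and Schwann cell markers (2 of 4) 1.88 above. Its neutrophil and blood monocyte markers (8 of 8) stood 0.35 above and its microglia markers 0.05 above. The part of these markers in the deviation was not tested. In Cx30GRko Dex replicate 4 the genes moved apart from each other, from 1.59 above the mean for B2m to -1.07 for Rtp4. The genes also varied more in the second array set, with a median SD within groups of 0.37 against 0.27 in the first and a larger SD in 21 of 30.

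**Figure D3:**
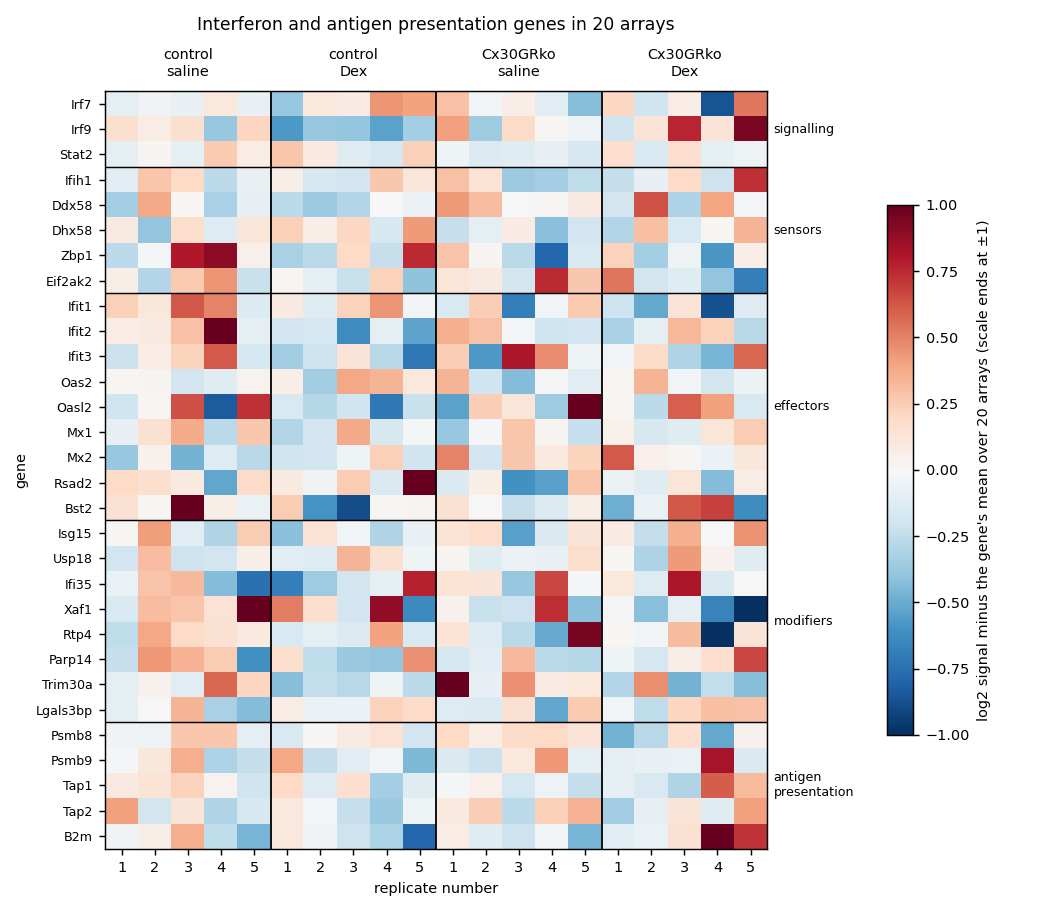
Each cell is the log2 signal of 1 gene (rows, ordered by role) in 1 array (columns, 5 replicates in each of 4 groups) minus that gene's mean over the 20 arrays; red is above and blue below, and the scale ends at 1 either way. No block of arrays is red or blue throughout a role group, and single cells such as B2m in Cx30GRko Dex replicate 4 (1.59 above its mean) stand out.

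The transcription factors were measured by 3 genes. Irf9, the DNA-binding subunit of the type I interferon complex, showed the lowest p of any measured gene on the list. Irf9 measured 5.88, 5.79, 5.88, 5.34 and 5.93 in control mice with saline and 5.14, 5.34, 5.33, 5.18 and 5.38 with Dex (log2 signal, replicates 1 to 5). The values in Cx30GRko mice were 6.13, 5.36, 5.91, 5.73 and 5.67 with saline and 5.52, 5.85, 6.48, 5.85 and 6.66 with Dex. Every control Dex mouse lay below every Cx30GRko Dex mouse, and 1 control saline mouse (5.34) lay inside the control Dex range. Under Dex, Irf9 was 1.74-fold higher in Cx30GRko than in control mice, a log2 difference of 0.80 ± 0.19 (95% interval 0.40 to 1.20, unadjusted p = 0.000466), which did not pass adjustment (adjusted p = 0.423, limma). The difference was 0.68 in the first array set and 0.98 in the second, and 0.68 (adjusted p = 1.0, limma) without the Cx30GRko Dex replicates 4 and 5. In control mice the Dex difference of Irf9 was -0.49 ± 0.19 (adjusted p = 0.857), in Cx30GRko mice it was 0.31 ± 0.19 (adjusted p = 0.582), and the difference between these responses was 0.80 ± 0.27 (adjusted p = 0.846). All of these but the Dex difference in Cx30GRko mice use the control Dex arrays, which held the lowest Irf9 mean, 5.27 ± 0.11 (SD, n = 5).

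Irf7, which drives the later wave of interferon genes, and Stat2, a partner of Irf9, gave no such pattern. Their mean Dex effects were 0.08 ± 0.15 and 0.07 ± 0.09, and their genotype differences under Dex were -0.19 ± 0.21 and -0.05 ± 0.13. Neither had an unadjusted p under 0.05 in any of the 6 comparisons.

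Of the sensors, Ifih1 (MDA5), Ddx58 (RIG-I) and Dhx58 (LGP2) detect viral RNA, Zbp1 binds Z-form nucleic acid, and Eif2ak2 (PKR) is the kinase that halts translation on double-stranded RNA. None of these 5 had an unadjusted p under 0.05 in any comparison. Eif2ak2 measured 6.18, 5.82, 6.37, 6.55 and 5.89 in control mice with saline and 6.13, 6.02, 5.89, 6.34 and 5.71 with Dex. With saline, Cx30GRko mice gave 6.23, 6.20, 5.93, 6.86 and 6.38, and with Dex they gave 6.65, 5.93, 5.99, 5.72 and 5.43. The lowest value was that of Cx30GRko Dex replicate 5 at 5.43, and the groups overlapped. Its Dex difference in Cx30GRko mice was -0.38 ± 0.21 (adjusted p = 0.543, limma), but 0.07 in the first array set and -1.05 in the second.

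Dhx58 had a mean Dex effect of 0.20 ± 0.11 (adjusted p = 0.62, limma), above 0 in both array sets at 0.12 and 0.31. Dhx58 measured 3.77, 3.29, 3.86, 3.55 and 3.80 in control mice with saline and 3.92, 3.75, 3.89, 3.52 and 4.11 with Dex. Cx30GRko mice had 3.45, 3.59, 3.76, 3.26 and 3.49 with saline and 3.39, 3.98, 3.53, 3.70 and 4.02 with Dex. All 4 groups overlapped. Zbp1 differed most between genotypes under saline, by -0.47 ± 0.25 (adjusted p = 0.914). Zbp1 measured 3.96, 4.21, 5.02, 5.12 and 4.27 in control mice with saline and 3.90, 3.95, 4.42, 3.99 and 4.97 with Dex. The values in Cx30GRko mice were 4.51, 4.25, 3.95, 3.44 and 4.07 with saline and 4.45, 3.88, 4.17, 3.64 and 4.29 with Dex. The control saline mice split widely, with replicates 3 and 4 above 5, and the second array set gave -0.94 against -0.16 in the first. Ddx58 differed by 0.24 ± 0.18 (adjusted p = 0.914) in the same comparison. Ddx58 measured 3.18, 3.90, 3.53, 3.20 and 3.44 in control mice with saline and 3.25, 3.16, 3.23, 3.52 and 3.46 with Dex. With saline, Cx30GRko mice gave 3.95, 3.83, 3.52, 3.53 and 3.61, and with Dex they gave 3.34, 4.16, 3.21, 3.92 and 3.50. Control and Cx30GRko mice overlapped under both treatments. Ifih1 had a mean Dex effect of 0.10 ± 0.13.

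Among the 9 measured antiviral effectors, the mean Dex effect was below 0 for 6 and above 0 for 3. Their median was -0.20, beside 0.02 over all genes. By array set the median was -0.11 in the first and 0.04 in the second, with 4 genes below 0 in both and 3 above 0 in both. Ifit2, one of a family of proteins that bind viral RNA and restrain its translation, had the lowest p for Dex in control mice. Ifit2 measured 4.59, 4.61, 4.81, 5.66 and 4.43 in control mice with saline and 4.33, 4.34, 3.89, 4.42 and 3.99 with Dex. Cx30GRko mice had 4.87, 4.81, 4.50, 4.32 and 4.33 with saline and 4.19, 4.43, 4.85, 4.75 and 4.24 with Dex. Every control Dex mouse lay below every control saline mouse, by a margin of 4.42 against 4.43 at the nearest, and the saline mean is raised by replicate 4 at 5.66. The difference was -0.63 ± 0.21 (95% interval -1.05 to -0.20), a 1.54-fold lower level, with an unadjusted p of 0.00624 and an adjusted p of 0.695 (limma). In Cx30GRko mice it was -0.07 ± 0.21, and the difference between the responses was 0.55 ± 0.29 (adjusted p = 0.846).

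The other family members did not show the same separation. Ifit1 had a Dex difference in control mice of -0.14 ± 0.20 and Ifit3 one of -0.39 ± 0.24. Ifit1 measured 5.51, 5.38, 5.89, 5.77 and 5.13 in control mice with saline and 5.36, 5.15, 5.50, 5.71 and 5.24 with Dex. The values in Cx30GRko mice were 5.12, 5.52, 4.59, 5.24 and 5.53 with saline and 5.06, 4.76, 5.40, 4.40 and 5.14 with Dex. Ifit1 was lower in Cx30GRko than in control mice under Dex by -0.44 ± 0.20 (unadjusted p = 0.0432, adjusted p = 0.44, limma), with overlapping groups and -0.32 without the Cx30GRko Dex replicates 4 and 5. Ifit3 has a near-identical copy, Ifit3b, so its signal may come from either.

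Bst2 (tetherin), which holds budding virus on the cell surface, had a Dex difference in control mice of -0.48 ± 0.27 (adjusted p = 0.942, limma). Bst2 measured 4.08, 3.94, 5.01, 3.99 and 3.86 in control mice with saline and 4.18, 3.33, 3.04, 3.94 and 3.96 with Dex. With saline, Cx30GRko mice gave 4.08, 3.93, 3.70, 3.79 and 3.99, and with Dex they gave 3.44, 3.86, 4.55, 4.61 and 3.30. The control saline mean was raised by replicate 3 at 5.01, and the difference was -0.83 in the first array set and 0.03 in the second. Mx2, of the dynamin-like Mx GTPase family, was higher in Cx30GRko than in control mice under saline, at 0.42 ± 0.16 (unadjusted p = 0.014, adjusted p = 0.914, limma). Mx2 measured 2.96, 3.38, 2.87, 3.21 and 3.06 in control mice with saline and 3.14, 3.15, 3.30, 3.58 and 3.14 with Dex. Cx30GRko mice had 3.84, 3.15, 3.61, 3.44 and 3.56 with saline and 3.95, 3.39, 3.35, 3.28 and 3.45 with Dex. In 5 of 5 Cx30GRko saline mice Mx2 stood above the control saline mean of its array set, yet the groups overlapped. The mean signal of Mx2 was low, at 3.34 beside a median of 4.68 over all genes. Mx1, whose gene is defective in C57BL/6J mice, Oas2 and Oasl2 (oligoadenylate synthetase family) and Rsad2 (viperin) had mean Dex effects of -0.03 ± 0.11, 0.13 ± 0.11, -0.20 ± 0.21 and 0.17 ± 0.16. None of these 4 reached an unadjusted p of 0.05 in any comparison.

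Of the 8 measured modifiers and other induced genes, Trim30a, a ubiquitin ligase of the TRIM family that dampens inflammatory signalling, had the lowest p of the list for the mean Dex effect. Trim30a measured 2.96, 3.10, 2.94, 3.63 and 3.27 in control mice with saline and 2.63, 2.81, 2.78, 3.01 and 2.79 with Dex. The values in Cx30GRko mice were 4.10, 2.97, 3.51, 3.14 and 3.16 with saline and 2.76, 3.52, 2.58, 2.81 and 2.63 with Dex. Control Dex values lay between 2.63 and 3.01 against 2.94 to 3.63 with saline, and 4 of 5 Cx30GRko Dex values lay below every Cx30GRko saline value. The mean effect was -0.45 ± 0.14 (95% interval -0.75 to -0.15, unadjusted p = 0.00543), which did not pass adjustment (adjusted p = 0.42, limma). The value was close in both array sets, -0.42 and -0.49, and in both genotypes, -0.38 ± 0.20 and -0.52 ± 0.20. The mean signal of Trim30a was low, at 3.05 beside a median of 4.68 over all genes. Trim30a has close relatives in a gene cluster, so its probes may read some of their RNA.

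Xaf1, a pro-apoptotic partner of an apoptosis inhibitor, was lower in Cx30GRko than in control mice under Dex by -0.62 ± 0.29 (unadjusted p = 0.0428, adjusted p = 0.44, limma). Xaf1 measured 5.43, 5.89, 5.86, 5.73 and 6.68 in control mice with saline and 6.10, 5.75, 5.39, 6.47 and 4.95 with Dex. With saline, Cx30GRko mice gave 5.63, 5.36, 5.38, 6.32 and 5.17, and with Dex they gave 5.57, 5.17, 5.49, 4.92 and 4.44. The difference was -0.34 in the first array set and -1.04 in the second, and the groups overlapped. Isg15, the ubiquitin-like protein that is attached to others during interferon responses, differed between the Dex responses of the genotypes by 0.37 ± 0.25 (adjusted p = 0.858). Isg15 measured 3.79, 4.19, 3.67, 3.47 and 4.03 in control mice with saline and 3.36, 3.92, 3.75, 3.47 and 3.70 with Dex. Cx30GRko mice had 3.91, 3.95, 3.23, 3.63 and 3.90 with saline and 3.86, 3.54, 4.13, 3.77 and 4.22 with Dex. All groups overlapped, and its mean Dex effect was 0.00 ± 0.13. The remaining modifiers gave mean Dex effects of 0.05 ± 0.11 for Usp18 (which removes Isg15), 0.02 ± 0.19 for Ifi35, -0.15 ± 0.18 for Rtp4, 0.06 ± 0.15 for Parp14 and 0.18 ± 0.12 for Lgals3bp. None of these 5 reached an unadjusted p of 0.05 in any comparison.

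**Figure D4:**
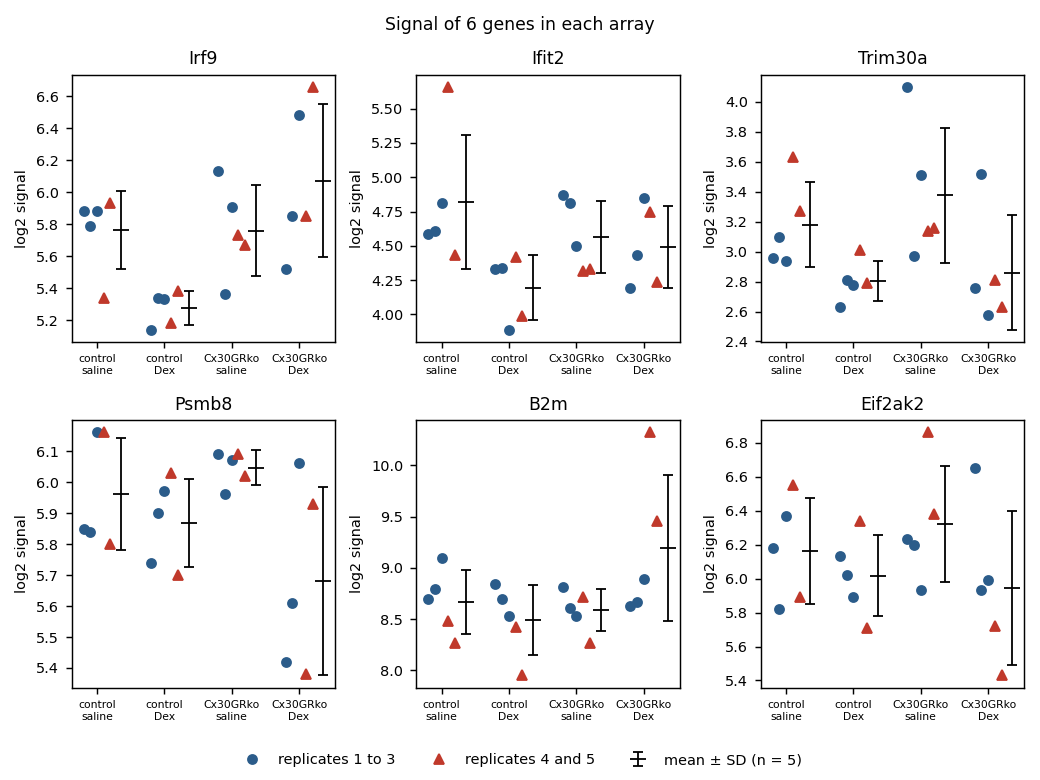
Log2 signal (y axis) of Irf9, Ifit2, Trim30a, Psmb8, B2m and Eif2ak2 in each of the 20 arrays by group; circles are replicates 1 to 3, triangles replicates 4 and 5, and black bars are the group mean ± SD (n = 5). The 5 control Dex values of Irf9 (5.14 to 5.38) lie below all 5 Cx30GRko Dex values (5.52 to 6.66), and the raised B2m values with Dex in Cx30GRko mice are the 2 triangles.

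For antigen presentation, Psmb8 and Psmb9 are interferon-induced catalytic subunits of the immunoproteasome, Tap1 and Tap2 form the peptide transporter, and B2m is the light chain of class I molecules. In control mice all 5 had a Dex difference below 0, from -0.18 to -0.07, with none at an unadjusted p under 0.05. Of these, 3 lay below 0 in both array sets. Over all genes, 52.3% lay above 0 in that comparison. Psmb8 measured 5.85, 5.84, 6.16, 6.16 and 5.80 in control mice with saline and 5.74, 5.90, 5.97, 6.03 and 5.70 with Dex. The values in Cx30GRko mice were 6.09, 5.96, 6.07, 6.09 and 6.02 with saline and 5.42, 5.61, 6.06, 5.38 and 5.93 with Dex. With Dex, Cx30GRko mice held both the 2 lowest values of Psmb8 (5.38 and 5.42) and 1 value above 6. Its Dex difference in Cx30GRko mice was -0.37 ± 0.14 (unadjusted p = 0.018, adjusted p = 0.483, limma), at -0.34 and -0.40 in the array sets, and its mean Dex effect was -0.23 ± 0.10 (adjusted p = 0.559).

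For B2m the Dex difference in Cx30GRko mice was above 0. B2m measured 8.70, 8.79, 9.10, 8.48 and 8.27 in control mice with saline and 8.84, 8.70, 8.53, 8.42 and 7.95 with Dex. With saline, Cx30GRko mice gave 8.81, 8.61, 8.53, 8.71 and 8.27, and with Dex they gave 8.63, 8.67, 8.89, 10.32 and 9.46. The 2 arrays that stand apart, Cx30GRko Dex replicates 4 and 5, held the 2 highest values of all 20, at 10.32 and 9.46. The Dex difference in Cx30GRko mice was 0.61 ± 0.26 (unadjusted p = 0.0276, adjusted p = 0.483, limma), at 0.08 in the first array set and 1.40 in the second. Without those 2 arrays it was 0.14 (unadjusted p = 0.49, limma). The genotype difference under Dex was likewise 0.70 ± 0.26 (adjusted p = 0.423) with them and 0.24 without. The same arrays had astrocyte markers (10 of 10 measured) 0.75 and 0.44 above their mean, neuron markers (8 of 8) 0.81 and 0.33 above, and lymphocyte markers (7 of 8) at -0.40 and -0.33; the part of these in the B2m values was not tested. Psmb9, Tap1 and Tap2 had genotype differences under Dex of 0.18 ± 0.20, 0.12 ± 0.16 and 0.11 ± 0.17, but -0.09, -0.26 and -0.06 in the first array set. Without the Cx30GRko Dex replicates 4 and 5 they were 0.01, -0.14 and 0.01. Psmb8 differed by -0.19 ± 0.14, and by -0.17 without those arrays.

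**Figure D5:**
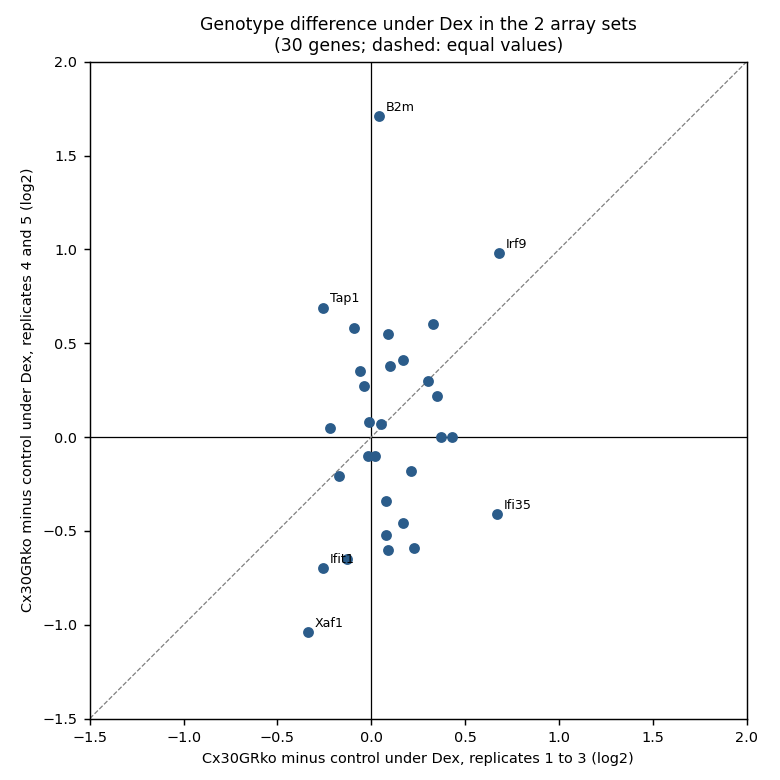
Cx30GRko minus control difference under Dex (log2) of the 30 measured genes in replicates 1 to 3 (x axis) and in replicates 4 and 5 (y axis); each point is 1 gene and the dashed line marks equal values. Irf9 is far from 0 in both array sets (0.68 and 0.98), whereas B2m is at 0.04 in the first and 1.71 in the second, and Ifi35 lies on opposite sides of 0.

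Counted over the list, the single-genotype comparisons gave the same result. For Dex in control mice, 0 of 30 passed adjustment against 3 of 22180 genes (0.0135%). At an unadjusted p under 0.05, 0 were higher (2.80% of all genes) and 2, Ifit2 and Irf9, were lower (2.36%). The median difference was -0.12, beside 0.01 over all genes, and 20 of 30 lay below 0. That median was -0.17 in the first array set and 0.01 in the second, with 12 genes below 0 in both. Groups did not overlap for 1 of 30, Ifit2, against 1.24% of all genes. In the same mice meningeal fibroblast markers ran from -0.17 to 0.85 with saline and from -1.12 to 0.19 with Dex, and endothelial markers (10 of 10 measured) from -0.12 to 0.24 and from -0.30 to -0.03; their part in these differences was not tested.

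For Dex in Cx30GRko mice, 0 of 30 passed against 4 genes in all (0.0180%). At an unadjusted p under 0.05, 1 was higher, B2m, against 5.79% of all genes, and 2 were lower, Psmb8 and Trim30a, against 3.94%. The median was 0.03, beside 0.02 over all genes, and 0 of 30 had groups that did not overlap (1.53% of all genes). In each genotype taken alone, 28 of 30 intervals for the Dex effect lay inside 2-fold and 18 inside 1.5-fold.

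The test of whether the genotypes answered differently to Dex called 0 of 30, and 0 of all 22180 genes (0%). At an unadjusted p under 0.05 it gave 1253 genes in all, 2.91% of all genes higher in Cx30GRko and 2.74% lower, and among the 30 it gave 2 higher, Irf9 and B2m, and 0 lower. The median was 0.05, beside 0.02 over all genes. This comparison is the least precise, with a median half-width of 0.59, and 23 of 30 intervals lay inside 2-fold.

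Between genotypes under saline, 0 of 30 and 0 of all genes (0%) passed. The unadjusted counts were 1 higher, Mx2, against 2.31% of all genes, and 0 lower, against 2.94%, out of 1165 genes at that level. No measured gene of the list had groups that did not overlap (0.938% of all genes), and the median was -0.06, beside 0.01. Between genotypes under Dex, again 0 of 30 and 0 of all genes (0%) passed, with 2481 genes at an unadjusted p under 0.05. Of the 30, 2 were higher, Irf9 and B2m, against 6.74% of all genes, and 2 were lower, Xaf1 and Ifit1, against 4.45%. Groups did not overlap for 1, Irf9, against 1.28% of all genes. Without the Cx30GRko Dex replicates 4 and 5, this comparison gave 512 genes at that level in place of 2481, and 1 of the 30, Irf9, in place of 4. Dex in Cx30GRko mice then gave 685 genes in place of 2158 and 1 of the 30 in place of 3, and the comparison of the Dex responses gave 776 in place of 1253 and 1 in place of 2. The counts of the list, at most 3 of 30 in 1 direction, are to be read beside these shares.

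The rest of the pathway gave 0 calls as well, over 21 of 23 listed signalling genes, 16 of 18 further antigen presentation genes and 24 of 27 other interferon-induced genes. Of the signalling genes, Nlrc5, the activator of class I genes, had a Dex difference of 0.47 ± 0.18 in control mice (unadjusted p = 0.0131), and it was lower in Cx30GRko than in control mice under Dex by -0.65 ± 0.18 (unadjusted p = 0.00121, adjusted p = 0.423, limma). That genotype difference was -0.75 and -0.51 in the array sets, opposite in sign to that of Irf9. The mean signal of Nlrc5 was low, at 3.35 beside a median of 4.68 over all genes. Irf8, a factor of myeloid cells, differed between genotypes under Dex by -1.23 ± 0.38, but by -0.32 in the first array set and -2.59 in the second. Irf8 also has a second single-symbol probe set, whose difference was not examined. Ciita, the activator of class II genes, had a Dex difference in Cx30GRko mice of 0.43 ± 0.16 (unadjusted p = 0.0158, adjusted p = 0.483, limma). Its mean signal was also low, at 3.27. The saline and Dex groups of Ciita did not overlap, nor did those of the interferon gamma receptor chain Ifngr1, at 0.35 ± 0.16. This makes 2 of 21 against 1.53% of all genes. Counts of signalling genes at an unadjusted p under 0.05 were 2 higher and 1 lower for Dex in control mice (2.80% and 2.36% of all genes), 2 and 0 in Cx30GRko mice (5.79% and 3.94%), and 1 and 3 between genotypes under Dex (6.74% and 4.45%).

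Further antigen presentation genes leaned to 1 side in the comparison of the Dex responses, where 15 of 16 lay above 0 with a median of 0.23, beside 0.02 over all genes and 52.8% of all genes above 0. The one with an unadjusted p under 0.05 was H2-T23, a non-classical class I heavy chain, at 0.97 ± 0.36 (adjusted p = 0.846, limma). Of the 16, 9 lay above 0 in both array sets and 0 below 0 in both. The mean deviation of these genes from their own means was 0.04 and -0.07 in control mice with saline and Dex, and -0.08 and 0.11 in Cx30GRko mice. The meningeal fibroblast markers (8 of 8 measured) had 0.45 and -0.41 in control mice and -0.24 and 0.20 in Cx30GRko mice. In Cx30GRko Dex replicate 3 both were highest, at 0.33 and 0.98. The part of these markers in the lean was not tested. The 5 antigen presentation genes of the main list did not all share the lean, with 3 above 0 and 2 below in the same comparison. Among other interferon-induced genes, Slfn2, a Schlafen family gene of immune cells, differed between the Dex responses by 0.97 ± 0.29 (unadjusted p = 0.00302, adjusted p = 0.846, limma). Its Dex difference was -0.44 ± 0.20 in control mice and 0.53 ± 0.20 in Cx30GRko mice. In the first array set its means with saline and Dex were 5.15 and 4.99 in control mice, and 5.19 and 5.46 in Cx30GRko mice. They lay further apart in the second, at 5.62 and 4.77, and at 4.74 and 5.66. Adar, which edits double-stranded RNA, had a mean Dex effect of 0.34 ± 0.12 (unadjusted p = 0.0112, adjusted p = 0.483, limma). In control mice its means with saline and Dex were 7.21 and 7.38 in the first array set and 6.97 and 7.67 in the second. In Cx30GRko mice they were 7.27 and 7.45, then 7.09 and 7.58. Control saline replicate 5 had the lowest Adar value, 6.36. Counts of these genes at an unadjusted p under 0.05 were 1 higher and 1 lower for Dex in control mice, 2 and 1 in Cx30GRko mice, and 2 and 1 between genotypes under Dex, to be read beside the same shares of all genes. Ifi204, a DNA sensor of a family with near-identical copies, was lower in Cx30GRko mice under Dex by -1.40 ± 0.43, but by -0.38 in the first array set and -2.93 in the second.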

How the data were processed

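The data are 20 Affymetrix whole-transcript arrays of mouse spinal cord total RNA, with 5 mice in each of 4 groups. The authors deposited log2 values per probe set; the submitters' processing notes name oligo, and its version and settings are not given in the sources used here. All arrays had the same mean (4.64), and probe sets had been centred so that replicates 1 to 3 and replicates 4 and 5 have equal means. Depth has no counterpart on arrays, and the number of mice limits precision.

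Probe sets were named through the platform annotation: of 41345, 23521 carried 1 symbol, 1814 several and 16010 none. Each of 22180 genes was represented by its single-symbol probe set with the highest mean. Groups were taken from the sample labels. Differences were fitted with limma 3.58.1 (R 4.3.3) with 1 mean per group and no block (16 residual degrees of freedom), and p-values were adjusted by Benjamini-Hochberg over all genes within each comparison. Intervals are 95% intervals of that fit. The fit was tested on simulated data. The members and lists were chosen with earlier results of these data known. All members are named, and values by array are given for the 4 genes with the smallest p in each comparison; of each pathway list at most 4 genes per comparison are named. The deviations of same-numbered arrays of different groups had correlations from -0.31 to 0.04 over 30 pairs. Same-numbered arrays share an array set, and centring within a set itself lowers such correlations. These values therefore cannot decide whether the numbers mark pairs, and the main fit did not take them as pairs. Alternatives covered array sets, replicate blocks, normalization, array weights, dim genes, probe set choice and left-out arrays. Promoter windows are from RefSeq (GRCm38.p6); of the 32 genes, Parp14, Oas2, Usp18, Rtp4, Dhx58, Tap2, Zbp1, Mx2 and Mx1 had none.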

Additional observations from a re-analysis of the deposited data

Results flagged for a closer look

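In 4 cases among the 60 groups of values checked, 1 mouse stood far from the other 4 of its group. The gap was more than 0.71 of the group's range (Dixon's test for 5 values). Bst2 in control saline replicate 3 was 5.01, while the others lay between 3.86 and 4.08. Irf9 in control saline replicate 4 was 5.34, against 5.79 to 5.93. Mx2 in Cx30GRko Dex replicate 1 was 3.95, against 3.28 to 3.45. Trim30a in Cx30GRko Dex replicate 2 was 3.52, against 2.58 to 2.81. Over the 60 groups of values checked, chance alone gives about 3.0 such cases, since it marks about 1 in 20. The check did not cover every measured gene of the list, so the 4 cases are not a count over the list. Further cases lay outside it, and those given here are examples. Psmb9 in Cx30GRko Dex replicate 4 was 4.40, against 3.43 to 3.51. Rsad2 in control saline replicate 4 was 3.87, against 4.48 to 4.59. Rtp4 in control Dex replicate 4 was 6.15, against 5.60 to 5.66.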

How the results depend on the processing

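The number of listed genes passing adjustment was 0 in all 6 comparisons and in all 196 alternative counts. Each such count is a comparison under an alternative setting, and some only loosened the threshold on the same fit. The lowest adjusted p of any listed gene was 0.13 (limma, genotype difference under Dex within replicates 4 and 5). The median of the list stayed within 0.10 of its main value, the SD of that median between arrays, in 183 of 184 alternatives. The exception was Dex in control mice, where it was 0.01 within replicates 4 and 5 against -0.12. In the other comparisons the main median was itself smaller than 0.10 in size, so it could change sign and still count as unmoved. For the mean Dex effect it was -0.10 within replicates 1 to 3 and 0.05 within replicates 4 and 5. Of 748 refits of the genes with the lowest p, 746 kept their direction. The Dex difference of Bst2 in control mice was 0.03 within replicates 4 and 5, and that of Eif2ak2 in Cx30GRko mice was 0.07 within replicates 1 to 3. The cause was not tested. Most alternatives left out only 1 of the 20 arrays, and these genes were picked by their p in the same arrays. The refits are therefore not independent of the main fit, and a kept direction is no separate support. With the replicate number as a block, 0 of the 30 genes passed in any comparison, and the count over all genes for the mean Dex effect was 15 against 33. That count was 101 within replicates 1 to 3, 129 with array weights, 20 with all probe sets kept and 0 within replicates 4 and 5. Leaving out dim genes removed 15 of the 30. Signals near background can hide changes in the dim genes.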

Other observations

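Ifi35 and Lgals3bp each have a second single-symbol probe set that was not used above. For Lgals3bp it gave a mean Dex effect of -0.18 ± 0.19 (SE), where the probe set used gave 0.18 ± 0.12, so the direction of that gene is not settled by the arrays. For Ifi35 the second probe set gave 0.10 ± 0.10, beside 0.02 ± 0.19.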
